A study of Mus musculus with 36 samples.

Results

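The brake of the cell division cycle was followed as 10 genes, of the 24411 in the RNA-seq tables, across mouse mesenchymal stem cells (MSCs) grown from 4 tissues. The rule that picked them is a list of names that uses no measured value, though it was drawn up with earlier results of these data known: the cyclin-dependent kinase (CDK) inhibitors Cdkn1a, Cdkn1b, Cdkn1c, Cdkn2a, Cdkn2b, Cdkn2c and Cdkn2d, the tumour suppressor Trp53, its ubiquitin ligase Mdm2, and the retinoblastoma gene Rb1. The cells came from C57BL6/J mice aged 8 weeks, with no allele or drug treatment named in the labels. Femoral bone marrow gave fBM-MSCs (3 RNA-seq libraries), vertebral bone marrow gave vBM-MSCs (2 libraries, replicate 3 not analysed here), adipose tissue gave A-MSCs (3 libraries) and lung gave P-MSCs (3 libraries). Bone was crushed to free the marrow cells, whereas fat and lung were minced and treated with collagenase, so the manner of isolation cannot be told apart from the split of bone marrow (fBM-MSC and vBM-MSC) against non-bone marrow (A-MSC and P-MSC) cells. All cells grew in MesenCult medium on collagen I with a Rock inhibitor and were used within their first passages, so every library describes a culture of 1 tissue and not the tissue itself. The 4 tissues were taken from the same mice, which library shares a mouse with which is not given in the labels, and the tests treat the libraries as independent. ATAC-seq, which marks open chromatin by where a transposase cuts, was available as 1 pooled peak list per tissue.

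CDK inhibitors come in 2 families. The INK4 proteins p16INK4a (from Cdkn2a), p15INK4b (Cdkn2b), p18INK4c (Cdkn2c) and p19INK4d (Cdkn2d) bind CDK4 and CDK6 and keep them from pairing with D-type cyclins. The Cip/Kip proteins p21 (Cdkn1a), p27 (Cdkn1b) and p57 (Cdkn1c) act on cyclin E and cyclin A complexes as well. With CDKs inhibited, the Rb1 protein stays bound to E2F factors and the genes of DNA replication stay silent. The Cdkn2a gene also makes p19ARF from another promoter and reading frame, and p19ARF blocks Mdm2, the ligase that marks p53 for destruction. Both Cdkn1a and Mdm2 are textbook targets of p53. In cultured fibroblasts and MSCs, p16INK4a, p15INK4b and p21 are known to build up with passage and stress.

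Each RNA-seq library held 19569650 to 40517739 expected counts, which are read numbers estimated per gene by the program RSEM. Levels are given as TPM, RSEM's transcript abundance in which both length and library size are scaled out. Differences are log2 fold changes with a standard error (SE) from the quasi-likelihood test of edgeR, and a gene passed where its p, adjusted after Benjamini and Hochberg, was under 0.05. All 10 genes passed the filter on low counts, along with 12509 genes in all. The 4 MSC markers summed to 983 to 2336 TPM over all libraries. Of the markers that MSCs should lack, Cd34 averaged 54.0 ± 38.1 TPM (SD, n = 3) in fBM-MSCs and 7.40 TPM or less elsewhere. The defining macrophage genes Adgre1, Itgam and Fcgr1 were at 0 TPM in every bone marrow library, though the 8 macrophage markers summed to 24.4 to 52.1 TPM there and 15 to 27.1 TPM in the others, and the 6 erythroid markers summed to at most 0.13 TPM in any library. Endothelial markers summed to between 3.53 and 55.54 TPM in A-MSCs against at most 1.19 TPM in the bone marrow libraries, and the part of these cells in the results was not tested. The 5 mesothelial markers summed to between 47.6 and 58.1 TPM in A-MSCs, which expressed each of them (Wt1 12.4, Upk3b 11.4 and Msln 9.58 TPM on average). Their sum of 54.0 to 62.9 TPM in P-MSCs was nearly all Krt19 (54.9 TPM on average), with Wt1 and Lrrn4 at 0 TPM, and in the bone marrow libraries it was at most 12.3 TPM. Their part was not tested either. The 10 proliferation markers (Mki67, Top2a, Pcna, Mcm2, Mcm3, Mcm5, Plk1, Aurkb, Bub1 and Birc5) summed to between 172 and 208 TPM in the bone marrow libraries, 465 to 485 TPM in A-MSCs and 994 to 1071 TPM in P-MSCs. Proliferation marker RNA thus moved with tissue, and its part in the results that follow was not tested. In bulk RNA a lower share of cells making a transcript and less of it per cell cannot be told apart.

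The brake genes did not move as a block. On average over their tissues, bone marrow MSCs held several-fold more Cdkn2a and Cdkn2b RNA than A-MSCs and P-MSCs. They held moderately more Cdkn1a and Mdm2 RNA, with an excess of Rb1 that rested on 1 vBM-MSC library, and less Cdkn1b, Cdkn2c, Cdkn2d and Trp53 RNA. Only Cdkn2a, Cdkn2b and Mdm2 passed the test for each bone marrow tissue against each non-bone marrow tissue. Between fBM-MSCs and A-MSCs, Cdkn1a, Cdkn2c, Cdkn2d, Trp53 and Rb1 did not pass. Of the 10 genes 9, all except Cdkn1c, differed among the 4 tissues, where 60.6% of all genes tested did. With bone marrow set against non-bone marrow cells 9 differed as well, against 47.2% of all genes, with 5 higher in bone marrow (24.8% of all genes were) and 4 lower (22.4% of all genes were). The median size of the log2 fold change was 0.80 over the 10 genes and 0.44 over all genes tested.

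**Figure D1:**
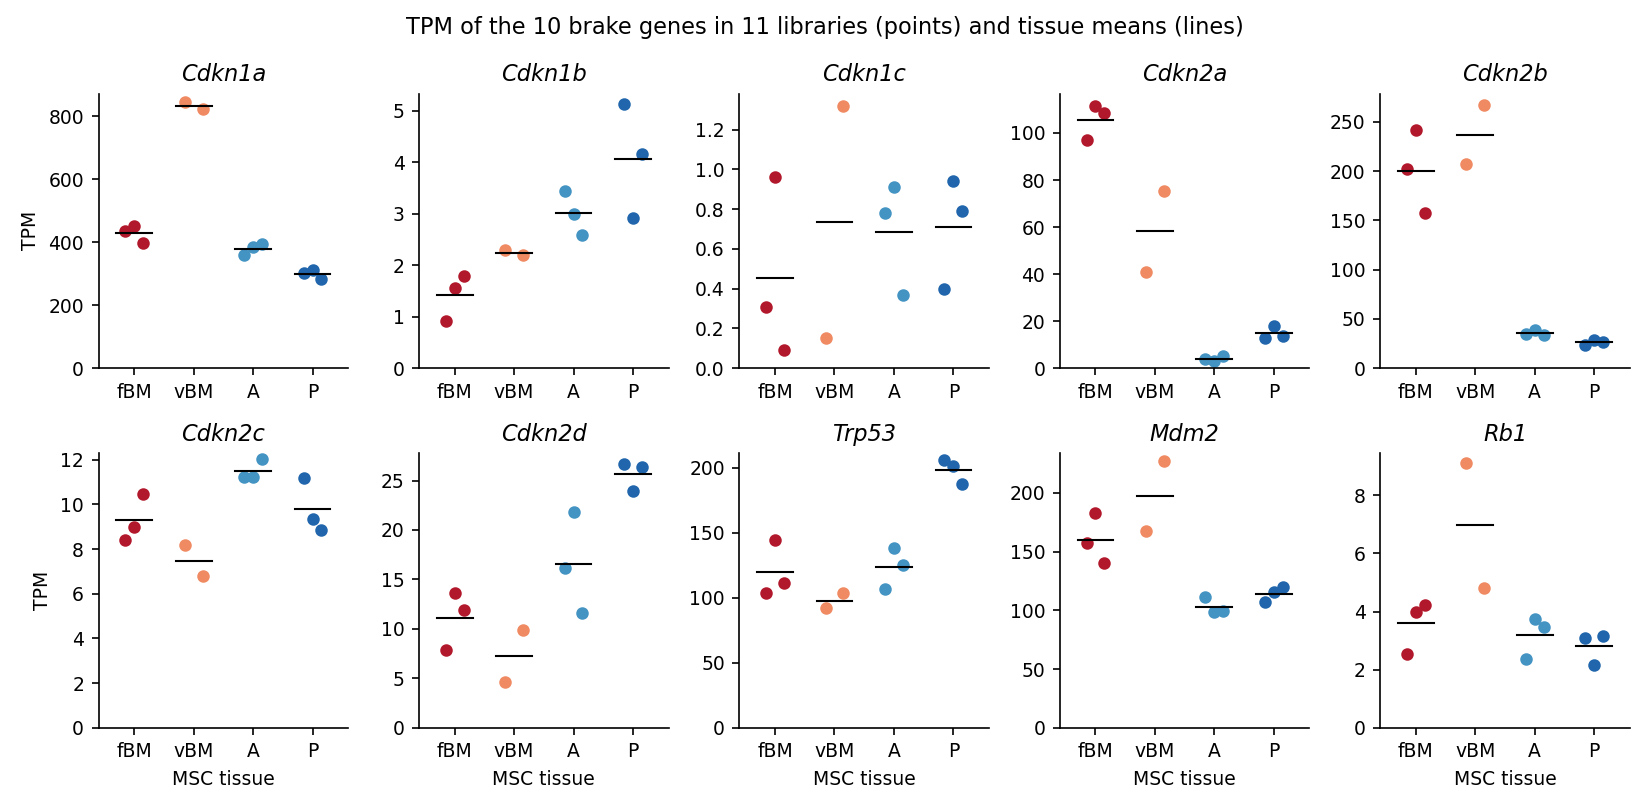
TPM of each brake gene (vertical axes, linear from 0, each with its own scale) in the 11 libraries, as points by tissue, with the tissue mean as a line. Cdkn2a and Cdkn2b are high in all 5 bone marrow libraries, Cdkn1a is highest in the 2 vBM-MSC libraries, and Trp53 and Cdkn2d are highest in the 3 P-MSC libraries.

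Cdkn2a (chr4:89274473-89294619 of GRCm38, minus strand) varied the most. Its level was 97.2, 111 and 109 TPM in the 3 fBM-MSC libraries and 41 and 75.4 TPM in the 2 vBM-MSC libraries. In P-MSCs it stood at 12.8, 17.9 and 13.7 TPM, and in A-MSCs at 3.92, 3.14 and 5.22 TPM. No library overlapped with another tissue's range, so the order fBM-MSC, vBM-MSC, P-MSC, A-MSC held library by library, and each of the 6 pairs of tissues passed the test in the model over all libraries. Bone marrow MSCs exceeded non-bone marrow MSCs by 3.29 on the log2 scale (SE 0.17, 9.77-fold, adjusted p = 1.37e-07 by edgeR). The smallest step of the order was that of fBM-MSCs over vBM-MSCs, at 0.91 on the log2 scale (SE 0.24, adjusted p = 0.0295 by edgeR), and the largest that of fBM-MSCs over A-MSCs, at 4.54 (SE 0.25, 23.3-fold, adjusted p = 5.85e-07). That smallest step fell to 0.64 without vBM-MSC replicate 1, which left 1 vBM-MSC library. It did not pass without fBM-MSC replicate 2 (0.90, adjusted p = 0.0694 by edgeR) or fBM-MSC replicate 3 (0.88, adjusted p = 0.0529). It did not pass with the replicate number as a block (adjusted p = 0.0527 by edgeR) or with only these tissues in the fit (adjusted p = 0.0826).

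The 2 products of Cdkn2a could be told apart in part, since RSEM deposited for each gene a transcript length averaged over its isoforms by their abundance. The RefSeq transcript for p16INK4a is 850 bases long and that for p19ARF 929 bases, so a mean length between them gives the share of each, provided that the annotation behind the RSEM tables held just these 2 transcripts with these lengths. The isoform tables were not used here, so that assumption was not checked, and every p16INK4a and p19ARF share and level given here depends on it. This estimate was added after the data were seen, and it rests on 53 to 83 expected counts per library in A-MSCs against 522 to 1694 in bone marrow MSCs. The p16INK4a share was 83.1%, 81.1% and 88.2% in fBM-MSCs, 58.8% and 77.9% in vBM-MSCs, 71.8%, 73.2% and 69.2% in P-MSCs, and 40.7%, 57.6% and 53.4% in A-MSCs. All 3 fBM-MSC libraries lay above every other library, and the 3 A-MSC libraries below every other one. The mean share was 77.8% ± 11.3 (SD, n = 5) in bone marrow and 60.98% ± 12.8 (SD, n = 6) in non-bone marrow libraries. The difference of 16.8 percentage points gave p = 0.0519 in a two-sided exact permutation test. That test shuffles libraries across tissues, though they are replicates within tissues whose shares differ. It therefore cannot decide whether the share goes with bone marrow, and P-MSCs (mean 71.4%) stood above vBM-MSCs (68.3%). The p fell to 0.00952 without vBM-MSC replicate 1, to 0.0397 without P-MSC replicate 2, and to 0.0476 without P-MSC replicate 1 or without P-MSC replicate 3 (exact permutation tests). Without any other single library it lay between 0.0857 and 0.114 (exact permutation tests), and the difference was smallest, at 12.8 points, without A-MSC replicate 1, so this difference rests on which libraries are included.

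Split by these shares, p16INK4a transcripts reached 89.0 ± 7.60 TPM in fBM-MSCs (SD, n = 3), 41.4 ± 24.5 TPM in vBM-MSCs (SD, n = 2), 10.6 ± 2.17 TPM in P-MSCs and 2.06 ± 0.64 TPM in A-MSCs (SD, n = 3 each). The p19ARF transcripts, whose product frees p53 from Mdm2, reached 16.8 ± 4.11 TPM in fBM-MSCs (SD, n = 3) and 16.8 ± 0.14 TPM in vBM-MSCs (SD, n = 2), but 4.20 ± 0.60 TPM in P-MSCs and 2.03 ± 0.61 TPM in A-MSCs (SD, n = 3 each). Estimated p19ARF was thus nearly level in both kinds of bone marrow MSC, whereas p16INK4a differed between them. No test was run on these split values, which combine 2 estimates.

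**Figure D2:**
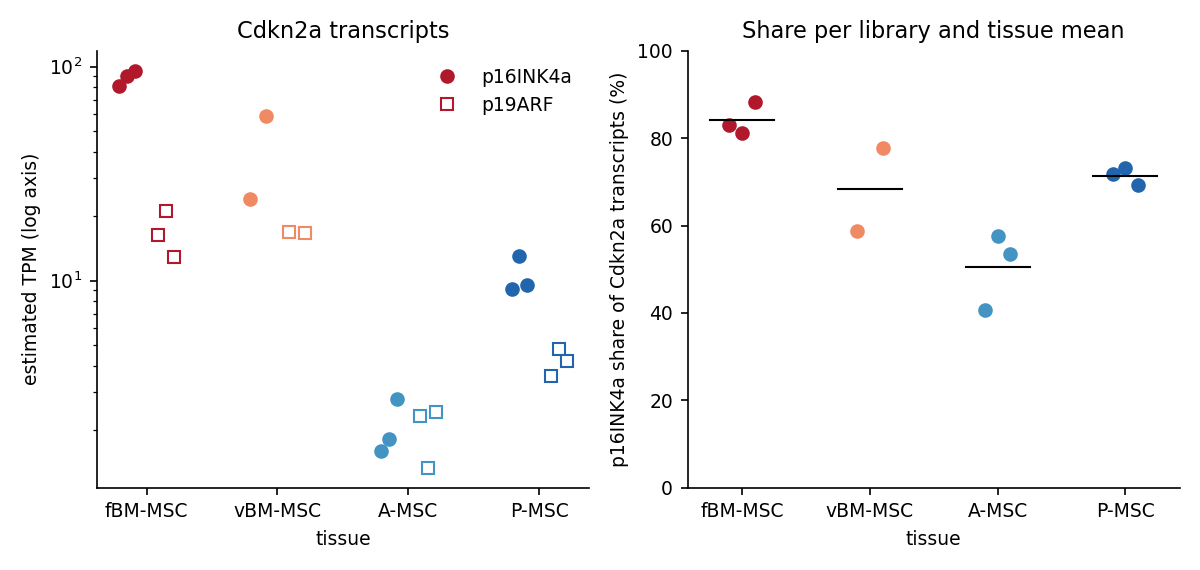
Left, estimated TPM, on the assumption of 2 transcripts of RefSeq length, of the p16INK4a (filled circles) and p19ARF (open squares) transcripts of Cdkn2a per library, on a log axis; right, the p16INK4a share of Cdkn2a transcripts in percent per library, with tissue means as lines. The share lies above 80% in the 3 fBM-MSC libraries and below 58% in the 3 A-MSC libraries.

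The promoters of both products are shown because their accessibility was compared with these levels. They span 250 bases before to 50 bases after each start, from the RefSeq promoter table for GRCm38.p6, on the gene's strand. Capitals mark GGGCGG, the GC box of Sp1-type factors, and TTCCCGC, a core of E2F sites, each searched on both strands.
p16INK4a promoter, chr4:89282143-89282442: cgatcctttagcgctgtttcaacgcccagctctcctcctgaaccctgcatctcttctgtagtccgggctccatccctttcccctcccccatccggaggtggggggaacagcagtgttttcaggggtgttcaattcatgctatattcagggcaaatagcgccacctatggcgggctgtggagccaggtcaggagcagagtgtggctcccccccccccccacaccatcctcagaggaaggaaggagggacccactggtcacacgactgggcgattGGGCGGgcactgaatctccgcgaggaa
p19ARF promoter, chr4:89294570-89294869: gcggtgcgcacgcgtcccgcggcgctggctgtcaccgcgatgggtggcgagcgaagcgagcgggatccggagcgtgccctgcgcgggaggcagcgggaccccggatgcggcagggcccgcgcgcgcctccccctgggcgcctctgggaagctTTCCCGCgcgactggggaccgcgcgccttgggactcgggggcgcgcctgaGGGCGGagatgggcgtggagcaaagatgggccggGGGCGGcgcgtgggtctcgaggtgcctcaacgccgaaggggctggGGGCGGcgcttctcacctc
The p19ARF promoter held 3 GC boxes and 1 TTCCCGC with 77% G and C bases, and the p16INK4a promoter held 1 GC box and 60.3% G and C bases, beside a median of 52.7% in all 32851 promoters. GGGCGG was present in 35.7% of all promoters and TTCCCGC in 4.60%. These matches describe the letters of the window and say nothing of whether a factor was bound.

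Cdkn2b (chr4:89306289-89311032, minus strand), the INK4 gene next to Cdkn2a that is known to respond to TGF-beta, gave the most abundant INK4 transcript on average in each tissue. It was measured at 202, 242 and 158 TPM in fBM-MSCs and at 207 and 267 TPM in vBM-MSCs. Levels in A-MSCs were 34.8, 39.1 and 33.7 TPM, and in P-MSCs 23.6, 28.9 and 27.1 TPM. The lowest bone marrow library thus stood above 4 times the highest non-bone marrow library, and the bone marrow excess was 2.82 on the log2 scale (SE 0.11, 7.06-fold, adjusted p = 6.4e-08 by edgeR). Unlike Cdkn2a, Cdkn2b did not pass the test between fBM-MSCs and vBM-MSCs (log2 fold change -0.19, SE 0.15, adjusted p = 0.452 by edgeR), and it was higher in A-MSCs than in P-MSCs (0.64, SE 0.14, adjusted p = 0.00564). That call was lost in limma on log2(TPM + 1) and log2(TPM + 0.1), with differences of 0.42 and 0.44 (adjusted p = 0.0519 and 0.0502 by limma). Cdkn2a was lower in A-MSCs than in P-MSCs, by 1.59 on the log2 scale (SE 0.23, adjusted p = 0.000575 by edgeR). The TPM ratio of Cdkn2b to Cdkn2a was accordingly 9.26 ± 3.02 in A-MSCs, 1.82 ± 0.18 in P-MSCs and 1.90 ± 0.39 in fBM-MSCs (SD, n = 3 each), and 4.29 ± 1.07 in vBM-MSCs (SD, n = 2). The RefSeq gene Gm12610 runs antisense across Cdkn2b, and without strand information its reads cannot be told apart from those of Cdkn2b.

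The remaining INK4 genes moved the other way. Cdkn2d (chr9:21288459-21291421) was measured at 7.82, 13.7 and 11.96 TPM in fBM-MSCs, 4.59 and 9.90 TPM in vBM-MSCs, 16.2, 21.9 and 11.6 TPM in A-MSCs, and 26.7, 24.0 and 26.4 TPM in P-MSCs. P-MSCs stood above every other library, while A-MSCs and fBM-MSCs overlapped, and the bone marrow level was lower by 1.21 on the log2 scale (SE 0.22, 2.31-fold, adjusted p = 0.000903 by edgeR). Cdkn2c (chr4:109660876-109666756) changed least among the INK4 genes, with 8.42, 8.99 and 10.4 TPM in fBM-MSCs, 8.17 and 6.80 TPM in vBM-MSCs, 11.2, 11.2 and 12.03 TPM in A-MSCs and 11.2, 9.36 and 8.83 TPM in P-MSCs. Its bone marrow level was lower by 0.56 (SE 0.14, 1.47-fold, adjusted p = 0.00742 by edgeR) in counts and by 0.31 and 0.35 in limma on log2(TPM + 1) and log2(TPM + 0.1), which scale for transcript length. RSEM's mean transcript length of Cdkn2c was 1317 to 1492 bases in bone marrow libraries, 1362 to 1541 in A-MSCs and 1603 to 1813 in P-MSCs, and counts are not corrected for it. In counts, only vBM-MSCs passed the test against another tissue, with 1.68-fold less than A-MSCs and 1.57-fold less than P-MSCs. Without vBM-MSC replicate 2, which left 1 vBM-MSC library, these log2 fold changes went from -0.75 and -0.65 to -0.62 and -0.52. The difference from A-MSCs did not pass without A-MSC replicate 2 or 3 (adjusted p = 0.0667 and 0.0569 by edgeR). That from P-MSCs did not pass without P-MSC replicate 1 or 2 (0.0915 and 0.0764). Both were also lost with no filter on low counts (adjusted p = 0.0618 and 0.0757 by edgeR) and with only the tissues compared in the fit (0.0860 and 0.0602), and the latter with the replicate block (0.0589).

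Summed over the family, INK4 transcripts reached 327 ± 44.6 TPM in fBM-MSCs (SD, n = 3), 309.8 ± 69.4 TPM in vBM-MSCs (SD, n = 2), 68.0 ± 6.61 TPM in A-MSCs and 76.8 ± 3.03 TPM in P-MSCs (SD, n = 3 each). Cdkn2a enters as the whole gene, so these sums and the shares and ratios below include p19ARF transcripts, which code for no INK4 protein. By the split above, those made up 16.8 TPM in each bone marrow tissue, 4.20 TPM in P-MSCs and 2.03 TPM in A-MSCs. Makeup differed more than the sum did between A-MSCs and P-MSCs. Cdkn2b supplied 61.02% of the sum and 76.8% in fBM-MSCs and vBM-MSCs, and 52.8% and 34.5% in A-MSCs and P-MSCs. Cdkn2d supplied 33.5% in P-MSCs and 24.0% in A-MSCs, and 3.42% or less on average in either bone marrow MSC. Set against their targets, INK4 transcripts stood at 1.08 ± 0.13 per transcript of Cdk4 and Cdk6 together in fBM-MSCs (SD, n = 3) and 1.01 ± 0.12 in vBM-MSCs (SD, n = 2), but 0.166 ± 0.013 in A-MSCs and 0.144 ± 0.0079 in P-MSCs (SD, n = 3 each). Per transcript of the D-type cyclins the gap was smaller, at 0.315 ± 0.032 in fBM-MSCs (SD, n = 3) and 0.463 ± 0.029 in vBM-MSCs (SD, n = 2). A-MSCs had 0.214 ± 0.010 and P-MSCs 0.157 ± 0.0033 (SD, n = 3 each). These are ratios of RNA levels, with no test beyond that of the single genes.

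ATAC-seq heights at the INK4 promoters were too close, within counting error, to give an order of tissues to set beside the RNA. Of the 13 curated start sites of the brake genes, a summit was listed at 12 and 13 in fBM-MSCs and vBM-MSCs, and 12 and 12 in A-MSCs and P-MSCs, against between 51.4% and 53.6% of 28882 start sites. Fold enrichment in the lists, the height of a summit over the genome-wide background, rose in steps of 0.368 in every list, so each height could be read back as a whole number of reads with an exact Poisson interval that covers counting error only. The lists are pooled, so there is no replicate error and no test. Within 1000 bases of its start and at a −log10 q of at least 7, the p16INK4a promoter had a summit of 13.2 and 8.46 in P-MSCs and A-MSCs, and 7.36 and 11.04 in vBM-MSCs and fBM-MSCs, and the 4 counting intervals overlapped (24.4 to 48.7, 13.8 to 33.3, 11.4 to 29.7 and 19.4 to 41.6 reads). The tallest summit at the p19ARF start reached 15.8, 12.1, 13.2 and 12.1 in the same order, and that at the Cdkn2b start 22.4, 17.3, 20.2 and 19.5. The counting intervals of the 4 lists overlapped at each of these starts too. The regions at the p19ARF start also lie within 1000 bases of a start of Gm12610, so their height cannot be assigned to p19ARF alone. All 3 promoters thus had a summit in A-MSCs, where Cdkn2a RNA was lowest. Each was tallest in P-MSCs, where Cdkn2b RNA was lowest but promoter summits were higher as a whole (median 15.8, against 13.6 in fBM-MSCs). By rank within its list, the Cdkn2b promoter stood at 71.9% in fBM-MSCs and 69.7% in P-MSCs. The p16INK4a and p19ARF promoters ranked highest in P-MSCs, at 38.6% and 49.3%. The Cdkn2d promoter was among the most open of the genome, with a rank above 97.9% of all promoters with a summit in each list. Its fold enrichment was 56.3 and 63.3 in P-MSCs and A-MSCs, and 58.9 and 57.4 in vBM-MSCs and fBM-MSCs.

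Between the p19ARF and Cdkn2b starts lay a region whose height differed by tissue. Centred at position 89302334 of chromosome 4, it sits at -7715 bases from the p19ARF start, on its upstream side, and lies within the antisense gene Gm12610. It had 13 reads in fBM-MSCs (95% interval 6.92 to 22.2), 13 in vBM-MSCs (same interval), 42 in A-MSCs (30.3 to 56.8) and 56 in P-MSCs (42.3 to 72.7), which is a fold enrichment of 5.15, 5.15, 15.8 and 21.0. The intervals of the bone marrow lists do not overlap those of the other lists, and the bone marrow summits fell short of the −log10 q of 7. Over the 47626 regions listed in all 4 tissues, the log2 ratio of non-bone marrow to bone marrow height had a median of 0.22, and 35.9% of these regions were higher in both non-bone marrow lists than in both bone marrow lists. The ratio at this region was 1.84, above that of 99.6% of them. The tissues in which this region stood higher were those with less Cdkn2a and Cdkn2b RNA. Its 201 bases, on the plus strand, are shown because of its rank among the regions near brake genes that are listed in all 4 tissues. Of those, its height differed most between bone marrow and non-bone marrow lists, and regions missing from a list have no ratio.
Region between p19ARF and Cdkn2b, chr4:89302234-89302434: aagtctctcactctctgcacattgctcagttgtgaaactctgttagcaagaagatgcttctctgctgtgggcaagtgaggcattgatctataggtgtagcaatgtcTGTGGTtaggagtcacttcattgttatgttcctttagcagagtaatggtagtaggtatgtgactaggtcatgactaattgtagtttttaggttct
Capitals mark TGTGGT, a core of RUNX sites, found here once on either strand and in 19.6% of all 110984 regions searched in the same window. Neither TGANTCA (AP-1) nor GGAATG (TEAD), searched on both strands and present in 30.2% and 18.998% of regions, was found in it.

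**Figure D3:**
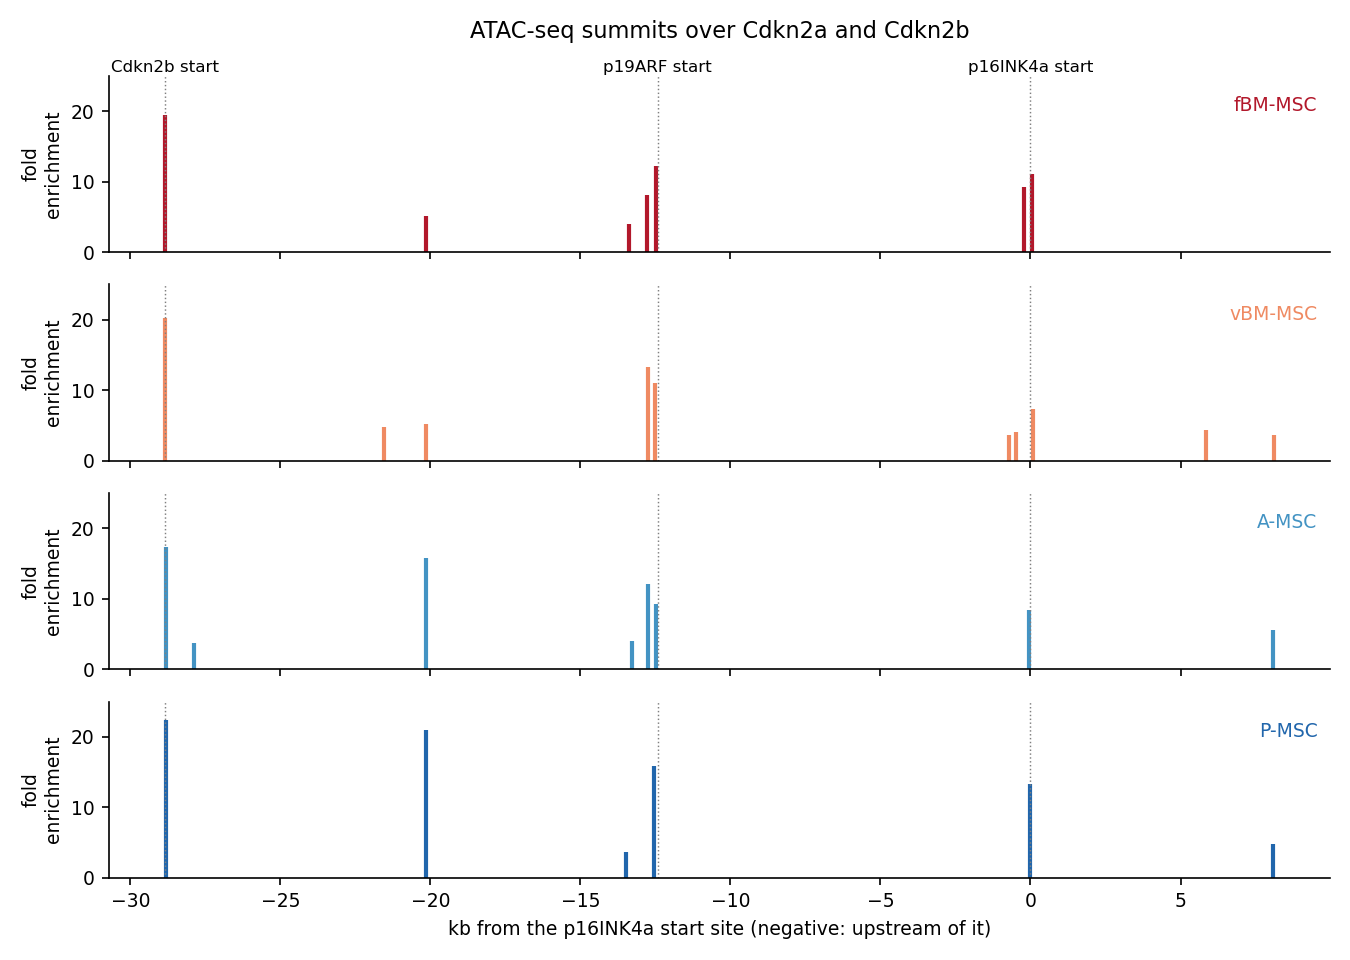
ATAC-seq summits over Cdkn2a and Cdkn2b in the 4 pooled lists. The horizontal axis is the distance in kb from the p16INK4a start and the vertical axis the fold enrichment of each summit as a bar from 0, with dotted lines at the 3 start sites; the summit between the p19ARF and Cdkn2b starts reaches 15.8 and 21.0 in A-MSCs and P-MSCs and 5.15 in both bone marrow lists.

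Among the Cip/Kip genes, Cdkn1a (chr17:29090979-29100722, plus strand) supplied between 98.2% and 99.7% of the family's TPM in every library. Its level was 437, 452 and 398 TPM in fBM-MSCs, 844.5 and 823 TPM in vBM-MSCs, 358, 386 and 393 TPM in A-MSCs, and 302, 312 and 283 TPM in P-MSCs. vBM-MSCs stood apart from all others, P-MSCs were lowest, and fBM-MSCs and A-MSCs were neighbours whose libraries nearly touched. The vBM-MSC level exceeded that of fBM-MSCs by 0.92 on the log2 scale (SE 0.11, 1.89-fold, adjusted p = 0.000434 by edgeR) and that of A-MSCs by 1.03 (SE 0.11, 2.04-fold, adjusted p = 8.88e-05). fBM-MSCs and A-MSCs did not differ by the test (0.11, SE 0.10, adjusted p = 0.425 by edgeR). The bone marrow excess of 0.84 (SE 0.07, 1.79-fold, adjusted p = 4.78e-06 by edgeR) was therefore carried largely by the vertebral cells.

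Cdkn1a has 2 curated start sites, and summits were listed at the downstream one in all 4 tissues and at the upstream one in the bone marrow lists. At the downstream start the summit reached 13.2 and 14.7 in P-MSCs and A-MSCs, and 11.04 and 13.6 in vBM-MSCs and fBM-MSCs. At the upstream start a summit was listed only in the bone marrow lists, with 23 reads in vBM-MSCs (95% interval 14.6 to 34.5, fold enrichment 8.83) and 12 in fBM-MSCs (6.20 to 21.0, fold enrichment 4.78, −log10 q 5.38). The lists give only summits above a cutoff, so in A-MSCs and P-MSCs this window is not listed, rather than measured as closed. Its sequence is shown because it was the one region of the 63 near brake genes that held a pair of exact matches to the p53 half-site. Capitals mark the half-site consensus of p53 where every base matched, so near matches are left out here and in the shares below.
Region at the upstream Cdkn1a start, chr17:29090827-29091027: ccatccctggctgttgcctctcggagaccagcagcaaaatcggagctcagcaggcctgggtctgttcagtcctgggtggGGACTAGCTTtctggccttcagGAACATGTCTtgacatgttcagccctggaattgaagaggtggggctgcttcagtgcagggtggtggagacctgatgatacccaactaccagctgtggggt
The half-sites are 12 bases apart. A pair with a spacer of at most 13 bases was found in 0.0514% of all 110984 regions, and at least 1 half-site in 6.64% of them and in 10 of the 63 near brake genes (1 of the 63 is counted for both Cdkn2a and Cdkn2b). The tallest Cdkn1a region in the A-MSC and P-MSC lists lay within the gene, 1745 bases past the downstream start. It reached 21.0 and 18.03 in P-MSCs and A-MSCs, and 10.7 and 12.9 in vBM-MSCs and fBM-MSCs. Its log2 ratio of non-bone marrow to bone marrow was 0.73, above that of 84.1% of regions listed in all 4 tissues. The counting intervals of A-MSCs and fBM-MSCs overlapped (35.4 to 63.6 and 23.5 to 47.5 reads).

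Cdkn1b, whose p27 protein is controlled mainly through its degradation, was a low transcript. Its values were 0.92, 1.56 and 1.78 TPM in fBM-MSCs, 2.29 and 2.19 TPM in vBM-MSCs, 3.43, 3 and 2.59 TPM in A-MSCs, and 5.12, 2.91 and 4.16 TPM in P-MSCs. All bone marrow libraries lay below all non-bone marrow ones, at -0.96 on the log2 scale (SE 0.25, 1.95-fold lower, adjusted p = 0.00856 by edgeR). Cdkn1c, the imprinted gene for p57, stayed between 0.09 and 1.32 TPM and between 4 and 54 expected counts per library. It spread as widely within tissues as between them, and its bone marrow fold change of 0.82 had a 95% interval from 0.278 to 2.41, with adjusted p = 0.767 by edgeR. Its log2 fold change of -0.29 became -1.36 without vBM-MSC replicate 2 and 0.12 when replicate 1 was left out instead, and it was -0.88 without fBM-MSC replicate 2, none of them past the threshold. Its spread between libraries beyond counting error, a coefficient of variation of 72.5% against a median of 19.8% over all genes, was the widest of the 10 genes, and changes within that interval could not be told from no change here. Of the other genes of the Cdkn1c imprinted domain, 4 of 5 tested differed in the bone marrow comparison (47.2% of all genes did), 2 in each direction, including the transporter gene Slc22a18 with a mean of 22.0 TPM in fBM-MSCs and 20.4 TPM in vBM-MSCs against 2.46 TPM in A-MSCs and 1.14 TPM in P-MSCs.

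Trp53 and Mdm2 RNA moved in opposite directions. Trp53 (chr11:69580348-69591873) was measured at 104, 144 and 111 TPM in fBM-MSCs, 92.0 and 104 TPM in vBM-MSCs, 107, 138 and 125 TPM in A-MSCs, and 206, 202 and 187 TPM in P-MSCs. P-MSCs stood apart, and the ranges of the other tissues ran into one another. P-MSCs exceeded the mean of the other tissues by 0.68 on the log2 scale (SE 0.10, 1.60-fold, adjusted p = 0.00023 by edgeR), and bone marrow fell below non-bone marrow MSCs by 0.53 (SE 0.09, 1.45-fold, adjusted p = 0.00065). fBM-MSCs and A-MSCs did not differ by the test (-0.13, SE 0.12, adjusted p = 0.442 by edgeR).

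Mdm2 (chr10:117688875-117710758) was measured at 157, 183 and 140 TPM in fBM-MSCs, 168 and 227 TPM in vBM-MSCs, 112, 98.2 and 99.4 TPM in A-MSCs, and 107, 116 and 120 TPM in P-MSCs. All 5 bone marrow libraries lay above all 6 others. The excess was 0.71 on the log2 scale (SE 0.08, 1.64-fold, adjusted p = 3.35e-05 by edgeR), and neither fBM-MSCs with vBM-MSCs (-0.25, SE 0.12, adjusted p = 0.198) nor A-MSCs with P-MSCs (0.04, SE 0.11, adjusted p = 0.792) passed the test. The Trp53 to Mdm2 ratio of TPM fell from 1.74 ± 0.18 in P-MSCs and 1.21 ± 0.23 in A-MSCs to 0.748 ± 0.077 in fBM-MSCs (SD, n = 3 each) and 0.502 ± 0.066 in vBM-MSCs (SD, n = 2), with every bone marrow library below every other one. The tallest summit near the Mdm2 start lay 592 to 615 bases into the gene and reached 25.7 and 21.0 in P-MSCs and A-MSCs, and 28.3 and 18.4 in vBM-MSCs and fBM-MSCs, so the bone marrow lists held both the tallest and the lowest. The region right at the Trp53 start, which it shares with the divergent gene Wrap53, reached 8.09 and 10.7 in P-MSCs and A-MSCs, and 5.52 and 8.09 in vBM-MSCs and fBM-MSCs. A taller region at -1003 bases, on the Wrap53 side, reached 23.5 and 19.5 in P-MSCs and A-MSCs, and 17.3 and 24.6 in vBM-MSCs and fBM-MSCs, and in vBM-MSCs its summit was the tallest within 1000 bases of the Trp53 start.

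A list of 24 other p53 targets was counted beside these genes. Of them 15 were higher and 3 lower in the bone marrow cells, with a median log2 fold change of 0.60 against 0.03 over all genes tested, where 24.8% of genes were higher and 22.4% lower. The largest rise was in Dcxr, a carbonyl reductase, with means of 140 TPM in fBM-MSCs, 185 TPM in vBM-MSCs, 48.8 TPM in A-MSCs and 29.98 TPM in P-MSCs (2.09 on the log2 scale with SE 0.13 and adjusted p = 3.78e-07 by edgeR). Perp, a membrane protein with a role in cell death, had the widest range of tissue means as a difference of log2(TPM + 1), from 229 TPM in vBM-MSCs over 60.3 ± 42.6 TPM (SD, n = 3) in fBM-MSCs and 41.4 TPM in A-MSCs to 23.5 TPM in P-MSCs. Fas, a death receptor, was highest in vBM-MSCs at 41.2 TPM and lowest in P-MSCs at 7.38 TPM. Plk2, a kinase of centriole duplication, fell the most, by 1.11 on the log2 scale (SE 0.14, adjusted p = 6.61e-05 by edgeR). The other genes that fell, named after their values were seen, were the cell death gene Bax (log2 fold change -0.34) and the sugar phosphatase gene Tigar (-0.72). Of 11 tested regulators of p53, 5 were lower in bone marrow MSCs and none was higher, beside those same shares over all genes, the largest fall being that of the checkpoint kinase gene Chek1 (-3.15 on the log2 scale, SE 0.45, adjusted p = 0.000145 by edgeR), itself known for its part in DNA replication.

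Rb1 (chr14:73192858-73325951), which codes for the protein that CDK4 and CDK6 inactivate, was measured at 2.55, 3.99 and 4.24 TPM in fBM-MSCs, 9.10 and 4.82 TPM in vBM-MSCs, 2.37, 3.74 and 3.46 TPM in A-MSCs, and 3.10, 2.16 and 3.16 TPM in P-MSCs. Only vBM-MSCs lay above the range of the others, and of those 2 libraries replicate 1 stood far above replicate 2. The bone marrow excess was 0.76 on the log2 scale (SE 0.23, adjusted p = 0.0177 by edgeR) and 0.43 without vBM-MSC replicate 1 (adjusted p = 0.131), so it rests on that library. The Rb1 promoter summit reached 13.6 and 16.9 in P-MSCs and A-MSCs, and 15.5 and 11.4 in vBM-MSCs and fBM-MSCs. A region within the gene, 32003 bases past its start, was taller than the promoter in A-MSCs and P-MSCs and lower than it in fBM-MSCs. It reached 26.5 in A-MSCs and 31.6 in P-MSCs but 15.8 in vBM-MSCs and 8.83 in fBM-MSCs, a log2 ratio of non-bone marrow to bone marrow of 1.24, above that of 96.3% of regions. Of 11 tested pocket protein and E2F genes, 1 was higher and 8 lower in the bone marrow cells, where 24.8% of all genes were higher and 22.4% lower. The rise was in Rbl2, whose product p130 holds E2F genes silent in resting cells (log2 fold change 1.03, SE 0.23, adjusted p = 0.00365 by edgeR), and the largest fall in the repressor E2f7 (-3.25, SE 0.52, adjusted p = 0.000357).

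P-MSCs, the cultures with the most proliferation marker RNA, differed from the mean of the other tissues in 8 of the 10 brake genes, against 44.6% of all genes tested. Cdkn1b, Cdkn2d and Trp53 were higher (22.3% of all genes were) and Cdkn1a, Cdkn2a, Cdkn2b, Mdm2 and Rb1 lower (22.3% of all genes were). The largest difference was in Cdkn2b, which was lower by 2.30 on the log2 scale (SE 0.13, 4.94-fold, adjusted p = 3.58e-07 by edgeR). Cdkn1a was lower by 0.92 (SE 0.09, 1.89-fold, adjusted p = 1.05e-05 by edgeR) and Cdkn2a by 1.13 (SE 0.19, 2.19-fold, adjusted p = 0.000579), while Cdkn2d was higher by 1.10 (SE 0.23, 2.14-fold, adjusted p = 0.00227). Cdkn2c gave 0.31 (95% interval -0.03 to 0.65) and Cdkn1c 0.09 (-1.62 to 1.80), and neither passed. The rise of Cdkn1b did not pass without vBM-MSC replicate 2 (0.76, adjusted p = 0.0517 by edgeR), P-MSC replicate 1 (0.59, adjusted p = 0.178) or P-MSC replicate 3 (0.79, adjusted p = 0.0864). The fall of Rb1 did not pass without any 1 of the 3 P-MSC libraries, fBM-MSC replicate 2, vBM-MSC replicate 1, or A-MSC replicate 2 or 3 (log2 fold changes -0.84 to -0.54, adjusted p between 0.0543 and 0.160 by edgeR). With the replicate block the rise of Cdkn1b did not pass either, and in limma on either TPM scale the fall of Rb1 did not. Since the P-MSC comparison uses the same libraries as that of bone marrow with non-bone marrow MSCs, it is not independent of it. A-MSCs and P-MSCs alone differed in 4 of the 10 genes (30.9% of all genes), with Cdkn1a and Cdkn2b lower in P-MSCs and Cdkn2a and Trp53 higher.

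**Figure D4:**
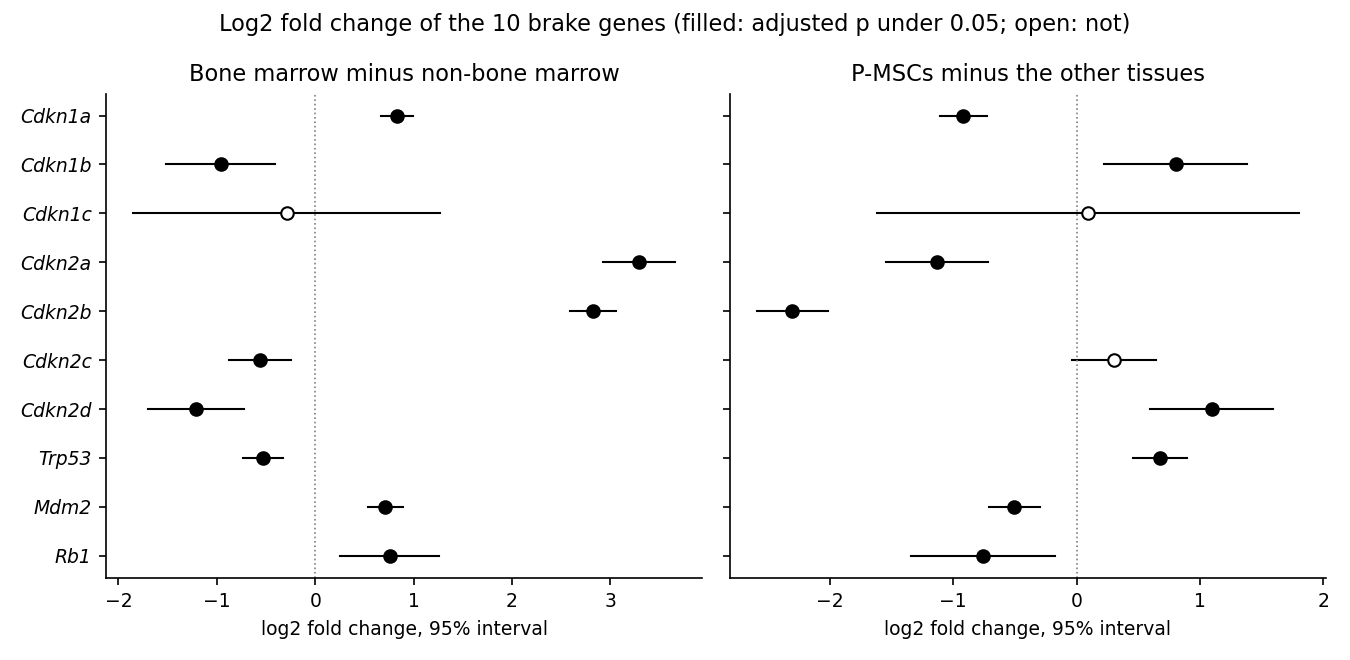
Log2 fold change of each brake gene with its 95% interval, for bone marrow minus non-bone marrow MSCs (left) and P-MSCs minus the mean of the other tissues (right). Filled points passed an adjusted p of 0.05. Cdkn2a and Cdkn2b lie farthest to the right at 3.29 and 2.82 on the left panel, and Cdkn2b farthest to the left at -2.30 on the right panel.

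Within the bone marrow, 2 of the 10 genes differed, against 12.8% of all genes tested: Cdkn2a was higher in fBM-MSCs and Cdkn1a in vBM-MSCs. The femoral cells thus had 1.88-fold more Cdkn2a and the vertebral cells 1.89-fold more Cdkn1a, while Cdkn2b did not pass. Without fBM-MSC replicate 2 or fBM-MSC replicate 3, 1 gene passed, Cdkn1a. Leaving out either vBM-MSC library left 1 library in that tissue. The log2 fold change of Cdkn2a was then 0.64 without replicate 1, and that of Rb1 -1.39 without replicate 2. Against A-MSCs, fBM-MSCs differed in 4 genes (40.9% of all genes), namely Cdkn2a, Cdkn2b and Mdm2 upward and Cdkn1b downward, and vBM-MSCs in 8 (25.6% of all genes), all except Cdkn1b and Cdkn1c. That count for vBM-MSCs was 5 without A-MSC replicate 2 or A-MSC replicate 3, the genes lost being Trp53, Rb1 and Cdkn2c each time. Without vBM-MSC replicate 1, the log2 fold changes of Cdkn2d, Trp53 and Rb1 were -0.96, -0.47 and 0.39. In that pair Rb1 also failed with the replicate block (adjusted p = 0.0571 by edgeR) and without fBM-MSC replicate 2 (0.0557), A-MSC replicate 1 (0.122), P-MSC replicate 1 (0.0586) or P-MSC replicate 3 (0.0588). Trp53 also failed there without P-MSC replicate 2 (adjusted p = 0.05004 by edgeR), and its log2 fold change was -0.45 without vBM-MSC replicate 2. Cdkn1b in fBM-MSCs did not pass without fBM-MSC replicate 1 or A-MSC replicate 1 (adjusted p = 0.0558 and 0.0532 by edgeR), and Cdkn2d did pass without A-MSC replicate 3 (0.0468). Against P-MSCs, fBM-MSCs differed in 7 genes (47.7% of all genes) and vBM-MSCs in 8 (38.7% of all genes). Of the latter, Rb1 went from a log2 fold change of 1.42 to 0.77 without vBM-MSC replicate 1.

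The partners of the inhibitors moved with the tissues as well. Of the 12 cyclins and CDKs listed, 2 were higher and 7 lower in the bone marrow cells, against 24.8% and 22.4% of all genes. Those higher were the D-type cyclins Ccnd1, with means of 606 TPM in fBM-MSCs, 264 TPM in vBM-MSCs, 35.4 TPM in A-MSCs and 129 TPM in P-MSCs (2.57 on the log2 scale with SE 0.08 and adjusted p = 2.54e-08 by edgeR), and Ccnd2 (0.84). D-type cyclins are what INK4 proteins keep from CDK4 and CDK6, and their sum reached 1034 ± 36.8 TPM in fBM-MSCs (SD, n = 3), 666 ± 109 TPM in vBM-MSCs (SD, n = 2), 318 ± 15.6 TPM in A-MSCs and 489 ± 23.2 TPM in P-MSCs (SD, n = 3 each). The largest fall was in Ccna2, the S-phase cyclin, with 8.93 TPM in fBM-MSCs, 13.3 TPM in vBM-MSCs, 67.3 TPM in A-MSCs and 129 TPM in P-MSCs (8.50-fold lower, adjusted p = 3.82e-07 by edgeR). In P-MSCs against the other tissues, 8 of the 12 were higher and 2 lower, where 22.3% of all genes were higher and 22.3% lower, the latter including Ccnd2 (log2 fold change -0.76).

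All 10 proliferation markers were lower in bone marrow MSCs (22.4% of all genes were) and higher in P-MSCs (22.3% of all genes were). The kinase Plk1 fell 9.71-fold in bone marrow MSCs, and Mki67 rose 13.1-fold in P-MSCs. Among 11 genes that degrade or stabilise CDK inhibitors, 2 were higher and 6 lower in the bone marrow cells (24.8% and 22.4% of all genes), the extremes being Fbxw7 of the cyclin E ligase (log2 fold change 0.83) and Cdc20 of the anaphase ligase (-2.95). Among 18 regulators of the INK4 and ARF genes, 2 were higher and 7 lower, so 9 of 18 passed where 47.2% of all genes did, a share near the background. Ezh2, the Polycomb methyltransferase known to silence Cdkn2a, had means of 5.79 TPM in fBM-MSCs, 5.76 TPM in vBM-MSCs, 12.8 TPM in A-MSCs and 43.6 TPM in P-MSCs (4.10-fold lower in bone marrow, adjusted p = 5.52e-07 by edgeR). Cbx7, a Polycomb protein also known to repress the locus, was higher in bone marrow MSCs but at most 1.29 TPM in the tissue means.

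Of 11 genes known to change in senescent cells, 3 were higher and 5 lower in the bone marrow cells, where 24.8% of all genes were higher and 22.4% lower, so the higher ones were near the background share. Lmnb1, which codes for lamin B1 and is lost in senescence, had 2.07 TPM in fBM-MSCs, 2.23 TPM in vBM-MSCs, 10.2 TPM in A-MSCs and 33.6 TPM in P-MSCs (8.59-fold lower, adjusted p = 8.32e-08 by edgeR). The 3 that were higher were Mmp3, a secreted matrix metalloproteinase, with 35.1 ± 47.0 TPM in vBM-MSCs (SD, n = 2) and 7.51 ± 3.86 TPM in fBM-MSCs against 2.05 ± 2.16 TPM in A-MSCs and 1.66 ± 0.84 TPM in P-MSCs (SD, n = 3 each; adjusted p = 0.00772 by edgeR), the secreted chemokine gene Ccl2 (1.37 on the log2 scale, SE 0.40, adjusted p = 0.0149 by edgeR) and Glb1, the gene of lysosomal beta-galactosidase (0.57, SE 0.12, adjusted p = 0.00253). The vBM-MSC level of Mmp3 varied between its 2 libraries by more than its mean, and its fold is uncertain to that extent. Il6, which encodes another secreted factor, was highest in A-MSCs at 146 TPM, followed by vBM-MSCs at 93.7 TPM, P-MSCs at 24.7 TPM and fBM-MSCs at 6.97 TPM, so it did not follow the order of Cdkn2a. The neighbour of Cdkn2a on the chromosome, Mtap, lay between 83.0 and 129 TPM on average in the 4 tissues and did not pass in the bone marrow comparison (log2 fold change -0.01, SE 0.09, adjusted p = 0.956 by edgeR).

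**Figure D5:**
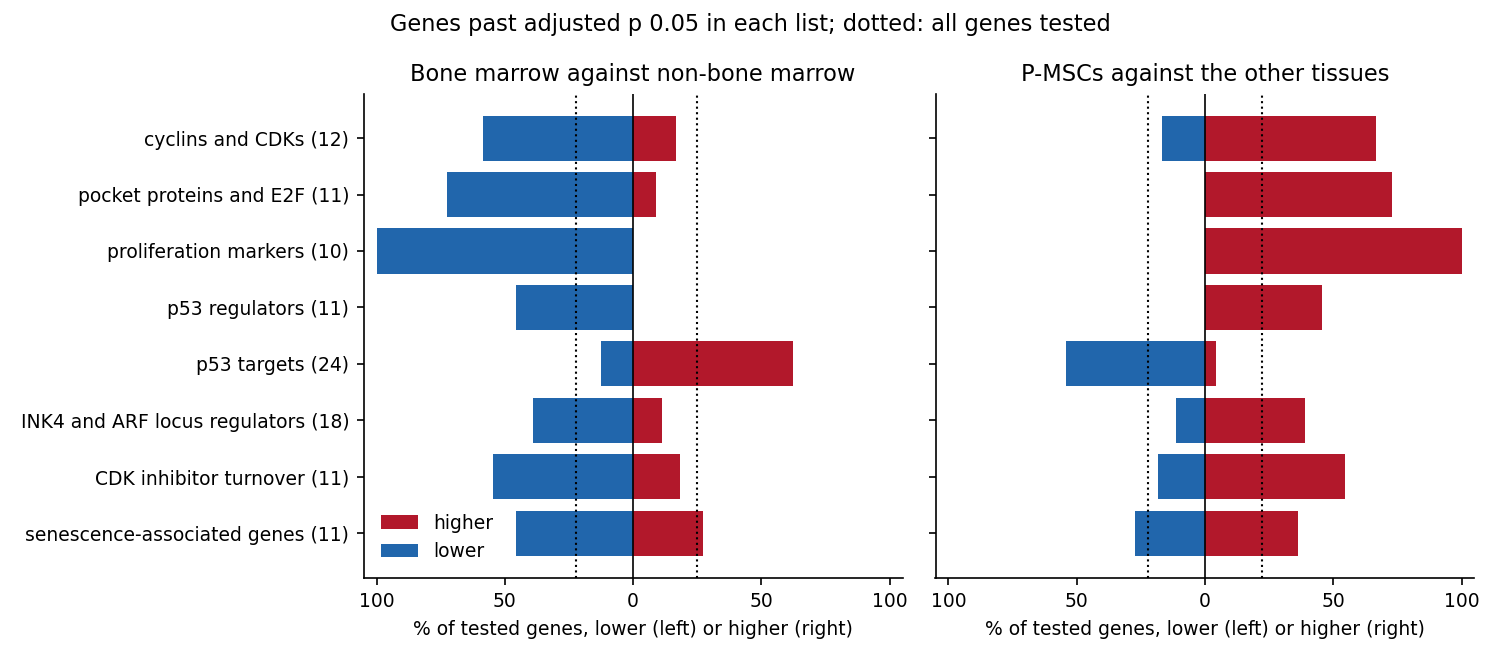
Share of the tested genes of each list (number in brackets) that passed an adjusted p of 0.05, lower to the left in blue and higher to the right in red, for bone marrow against non-bone marrow MSCs and for P-MSCs against the other tissues; dotted lines mark the shares over all genes tested. The p53 targets extend to the right in the first panel (15 of 24) and the proliferation markers to the left (10 of 10).

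For the 7 brake genes whose highest tissue mean was at least 2 times the lowest, the genes with the most similar pattern were sought, as the smallest root mean square difference of centred log2(TPM + 1) over the 11 libraries among 12509 genes. This is a description of patterns over shared libraries. The nearest gene to Cdkn2a was Ccnd1 (0.391), followed by the transcription factor gene Tbx15 (0.466) and Dkk3 (0.483). Among those nearest to Cdkn2b were Aplp1 (0.304) and Ces2e (0.344). Cdkn1a was nearest to Fibcd1 (0.171), Snurf (0.181) and Wls (0.181), and Cdkn1b to Purb (0.165), Slc25a5 (0.169) and Zbed4 (0.171). Cdkn2d was nearest to Klhl13 (0.168), Fgd3 (0.198) and Srd5a1 (0.252), Trp53 to Hnrnpll (0.126), Pfdn6 (0.128) and Zdhhc12 (0.128), and Rb1 to Peg13 (0.0781), Abcc5 (0.194) and Tmem168 (0.196).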

How the data were processed

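RNA-seq covered 11 libraries of cultured MSCs. The authors built Smart-seq2 libraries, which carry neither strand nor molecular identifiers, and ran RSEM with STAR against mm10. The deposited expected counts are RSEM's estimates per gene, not normalized, and the authors' TPM values were scaled by the same program for transcript length and to a fixed sum. The authors' abundance-weighted transcript length, deposited per gene, was used as another measurement. For ATAC-seq the authors trimmed, aligned with Bowtie, removed duplicates, shifted reads for the transposase and called peaks with MACS2 without local background on pooled samples. The deposited lists give each summit's fold enrichment, a ratio, and the authors' −log10 q per summit. Versions are not given in the sources used here.

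After rounding, these counts entered the quasi-likelihood test of edgeR 4.0.16 (R 4.3.3), with TMM scaling, genes kept where 2 or more libraries reached a CPM of 1, and Benjamini-Hochberg adjustment over 12509 genes, in 1 model over all libraries with tissue as the only term. The 10 genes and the 18 lists were chosen with earlier results of these data known, so no count of theirs is independent evidence. Named list genes are those with the largest rise and fall among genes passing in each of the 2 main contrasts, and the widest range of tissue means. Alternatives were DESeq2 1.42.0 (size factors and test), limma 3.58.1 on log2(TPM + 1) and log2(TPM + 0.1), other filters, a replicate block, only the tissues compared, and each library left out. Without 1 of the 2 vBM-MSC libraries that tissue holds 1 library, so the spread in such fits comes from the other tissues. Summits at a −log10 q of at least 7 within 1000 bases of a curated RefSeq start (GRCm38.p6, 28882 start sites, chromosomes 1 to 19) were assigned to promoters. Summits of the 4 lists within 200 bases of the tallest were joined into regions, regions within 10000 bases of a brake gene were described, and motifs were searched within 100 bases of the summit. RefSeq promoter sequences were found for 11 start sites of the brake genes. No promoter is printed for Cdkn1c or Rb1. The statistics and searches were tested on simulated data. Python 3.11.15, scipy 1.17.1, pysam 0.24.0 and matplotlib 3.10.9 were used. P-values of edgeR, DESeq2 and limma set a tissue difference against the spread between libraries of the same tissue. Those of the permutation test rest on shuffling libraries across tissues. No 2 libraries held identical counts. In the search for genes of similar pattern, 1 gene is not reported here.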

Additional observations from a re-analysis of the deposited data

How the results depend on the processing

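In the bone marrow and P-MSC comparisons every call on a brake gene kept its direction under every alternative run. Counts of brake genes past the threshold stayed within 1.5 times the reported ones, with 2 exceptions. Between fBM-MSCs and vBM-MSCs 2 genes became 1 with a replicate block and 1 with only these tissues in the fit, Cdkn2a being lost. The same held without fBM-MSC replicate 2 or fBM-MSC replicate 3. Between vBM-MSCs and A-MSCs 8 became 5 with only these tissues in the fit, which leaves fewer samples, and leaving out each library gave 5 to 8. Among single genes, the fall of Rb1 in P-MSCs (log2 fold change -0.76) did not pass in limma on either TPM scale (-0.47 and -0.58) nor without 7 single libraries, and the rise of Cdkn1b in P-MSCs did not pass with the replicate block (adjusted p = 0.0549 by edgeR) nor without 3 single libraries. The cause was not tested. On the TPM scale the median of all genes in the P-MSC comparison shifted to 0.10 and 0.13, and values there are read relative to it. Between A-MSCs and P-MSCs the Cdkn2b call was lost on both TPM scales (adjusted p = 0.0519 and 0.0502 by limma), as were those of Trp53 between vBM-MSCs and A-MSCs and of Cdkn2c between vBM-MSCs and P-MSCs.

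Replicate numbers in the labels do not say which libraries share a mouse. Deviations from the tissue means correlated at -0.03 to 0.16 over 15 pairs of the same number, with 1 above 0.1 and a median of 0.03. The median over 30 pairs of different numbers was -0.01, but deviations cancel out within a tissue, so it is no independent background. The correlations of the same number are short of what was asked to treat the numbers as pairs, and whether the numbers mark mice is not known. The replicate block changed the number of genes passing to 8 among the 4 tissues and 7 in the P-MSC comparison, and left 9 in the bone marrow comparison. Cdkn1c had at most 54 expected counts in a library and the widest spread between libraries of the 10 genes. Counted over the 4 lists, 49 start sites of brake genes had a summit, 41 at a −log10 q of at least 15, 50 with all summits and 49 within 500 bases of a start.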
